A study of Mus musculus with 8 samples.

Results

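Transcripts of 10 genes linked to the heat shock response were followed in mouse embryonic stem cells after siRNA knockdown: the small heat shock protein genes Cryab, Hspb1 and Hspb8, the co-chaperone gene Bag3, the HSP70 genes Hspa1a, Hspa1b and Hspa8, the HSP110 gene Hsph1, the collagen chaperone gene Serpinh1 and the transcription factor gene Hsf1. They were chosen with earlier results of these data known. Their probe sets were taken by symbol, as those annotated with exactly 1 of these 10 names. Probe sets were found for 9 of the 10 genes, 21 of the 45037 probe sets tested, and each gene was represented by whichever of its probe sets was brightest on average over the 8 arrays, as were the 18193 genes in all. Hsf1 was not analysed here.

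The cells were of the line NG4. They were reverse transfected, that is plated onto the transfection mix, and harvested after 48 h. The non-targeting siRNA (siNonTarget) was the control, and the other groups received siRNA against Sox2 (siSox2), a pluripotency transcription factor, against Psmd14 (siPsmd14), a deubiquitinase subunit in the lid of the proteasome, or against Ddb1 (siDdb1), the adaptor of the CUL4 ubiquitin ligases. Each of the 4 groups had 2 arrays, 8 in all, from 1 line, and all groups including the control were transfected. The labels do not say whether the 2 arrays of a group hold separate cultures. The p-values therefore measure the spread between these arrays alone, and that spread may be technical.

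Heat shock proteins are chaperones that hold or refold misfolded proteins, and the factor HSF1 induces many of their genes when damaged protein accumulates, for example when the proteasome is inhibited. Small heat shock proteins bind unfolding clients, HSP70 refolds them with ATP, and HSP110 recharges HSP70. BAG3 ties HSPB8 and HSP70 into a complex that sends clients to autophagy, with the receptor SQSTM1, rather than to the proteasome. HSF1 binds inverted repeats of the unit GAA, the heat shock element.

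A pair of inverted units, either GAANNTTC or TTCNNGAA, was searched in the promoter windows that RefSeq gives for GRCm38.p6, 250 bases before to 50 after a start. Both motifs read the same on the 2 strands, and they overlap where 3 units follow one another. Windows were matched for 7 of the 10 genes, and 6 of these held at least 1 pair, against 15.06% of all 32851 windows. No window was matched for Cryab, Hspa8 or Hsf1, so these were not searched. Pairs were present for Hspb1 (2 pairs), Hsph1 (3 pairs, of which 2 overlap), Hspb8, Bag3, Hspa1a and Hspa1b, and no match was found in these letters for Serpinh1. The 3-unit form, GAANNTTCNNGAA or its reverse complement, was present for Hsph1 and in 0.6027% of all windows. The stretches below show genes that rose in at least 1 knockdown (Hspa1b, Bag3, Hspb8) beside genes that passed in none (Hspb1, Hsph1), with the paired units in capitals. Hspa1b and Hspb1 are given as the 250 bases before the start (chr17:34959239-34959488, minus strand, and chr5:135887669-135887918, plus strand). Bag3 (chr7:128523603-128523632, plus strand) and Hspb8 (chr5:116422849-116422878, minus strand) are given as 30 bases that hold their pair. Both pairs lie after the start, at bases 43 to 50 for Bag3 and 3 to 10 for Hspb8, counting the start as base 1. Hsph1 (chr5:149636287-149636316, minus strand) is given as the 30 bases that hold its overlapping pairs, the 3-unit form, at bases 37 to 49 after the start. Its separate pair, upstream of the start, is not shown. RefSeq gives Hsph1 2 overlapping windows, and the first was used.
Hspa1b: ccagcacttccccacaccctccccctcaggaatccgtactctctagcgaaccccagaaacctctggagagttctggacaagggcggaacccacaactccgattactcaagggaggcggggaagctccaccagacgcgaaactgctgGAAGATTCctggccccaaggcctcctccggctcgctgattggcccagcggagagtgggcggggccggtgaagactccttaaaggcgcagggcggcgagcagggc
Hspb1: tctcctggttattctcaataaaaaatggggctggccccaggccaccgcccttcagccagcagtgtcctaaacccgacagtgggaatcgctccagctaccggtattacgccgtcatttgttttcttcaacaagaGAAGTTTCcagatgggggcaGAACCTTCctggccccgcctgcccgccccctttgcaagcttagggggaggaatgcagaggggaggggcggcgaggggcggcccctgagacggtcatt
Bag3: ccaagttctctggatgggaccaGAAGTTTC
Hspb8: agcccagaagccaggaGAAGTTTCtaggct
Hsph1: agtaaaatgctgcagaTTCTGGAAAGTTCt
The pairs of Bag3 and Hspb8 had the same 8 letters, which also stood in the Hspb1 window. In Hspa1a and Hspa1b the pair ended 97 bases before the start. The 300-base windows of those 2 genes differed at 4 bases, an identity of 98.67%. Genes with a pair were found both among those that rose and among those that did not. Serpinh1, with the smallest adjusted p of the 9 in siSox2, had none in its window. Sites outside the windows or with other letters were not searched, and whether HSF1 acted on any of these genes was not tested.

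The arrays were alike in scale, with medians of 27.37 to 28.83 intensity units and a median standard error of a log2 fold change of 0.15. On the arrays of its own group, the targeted transcript read 11.88 and 11.75 for Psmd14 (siNonTarget 12.07 and 11.97), 12.10 and 11.84 for Sox2 (siNonTarget 12.23 and 12.47) and 9.67 and 10.73 for Ddb1 (siNonTarget 11.88 and 11.81), on the log2 scale. None of these falls passed the limma test against siNonTarget (adjusted p = 0.522, 0.301 and 0.147). Ddb1 did pass as lower in siDdb1 than in siSox2 (-1.92, limma adjusted p = 0.00888), and siPsmd14 exceeded siDdb1 in it too (1.87, limma adjusted p = 0.0321). All 8 embryonic stem cell markers lay above the array median on each array. Their median log2 fold change was -0.38 in siPsmd14 and -0.39 in siSox2, with all 8 below 0 in both and 1 past the threshold, in siSox2, and -0.14 in siDdb1, with 7 below 0. By median they lay lower in each knockdown, also in siDdb1, where no heat shock gene passed. The part of these markers in the rises of heat shock genes in siPsmd14 and siSox2 was not tested. The defining genes of fibroblasts, the usual feeder cells, were low: 5 or 6 of 8 lay under the median of each array, and their intensities summed to 166.5 to 218.2. Of 8 trophoblast markers 6 rose in siSox2, 1 (Krt7) in siPsmd14 and none in siDdb1. Actb was read 0.35 log2 units higher by its 3' than by its 5' control probe set on siPsmd14 replicate 1, against 0.096 to 0.21 on the other arrays, a gap that widens as RNA is degraded. Over all probe sets, 6 of the 8 arrays correlated best with the other array of their group, whereas siPsmd14 replicate 2 and siDdb1 replicate 2 correlated best with each other (r = 0.9947). Those 2 arrays also had the highest 18S ribosomal RNA signal, 12.51 and 12.05, against 10.42 to 11.40 elsewhere.

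Among the 9 genes, 3 rose in siPsmd14, 4 rose in siSox2 and none passed in siDdb1, and none fell in any knockdown. Cryab and Bag3 rose in both siPsmd14 and siSox2. Hspb8 rose in siPsmd14, and Hspa1b and Serpinh1 in siSox2. Over all 18193 genes, 1.7% rose in siPsmd14, 2.81% in siSox2 and 0.044% in siDdb1, and 0.187%, 1.46% and 0% fell, by the same limma threshold of an adjusted p of 0.05. Of all 45037 probe sets, 3619 had an unadjusted limma p under 0.05 in siDdb1, 6529 in siPsmd14 and 6744 in siSox2. Some probe sets pass that limit without any change, and 12 passed after adjustment in siDdb1. The median log2 fold change of the 9 genes was 0.87 in siPsmd14, 1.01 in siSox2 and 0.19 in siDdb1, beside -0.01, -0.03 and -0.01 over all genes. The genes were chosen with earlier results of these data known, so these counts and medians are no independent test of the list. The 3 knockdowns share the 2 control arrays. For a rise, more cells that express a gene and more of its RNA per cell cannot be told apart in these bulk samples.

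**Figure D1:**
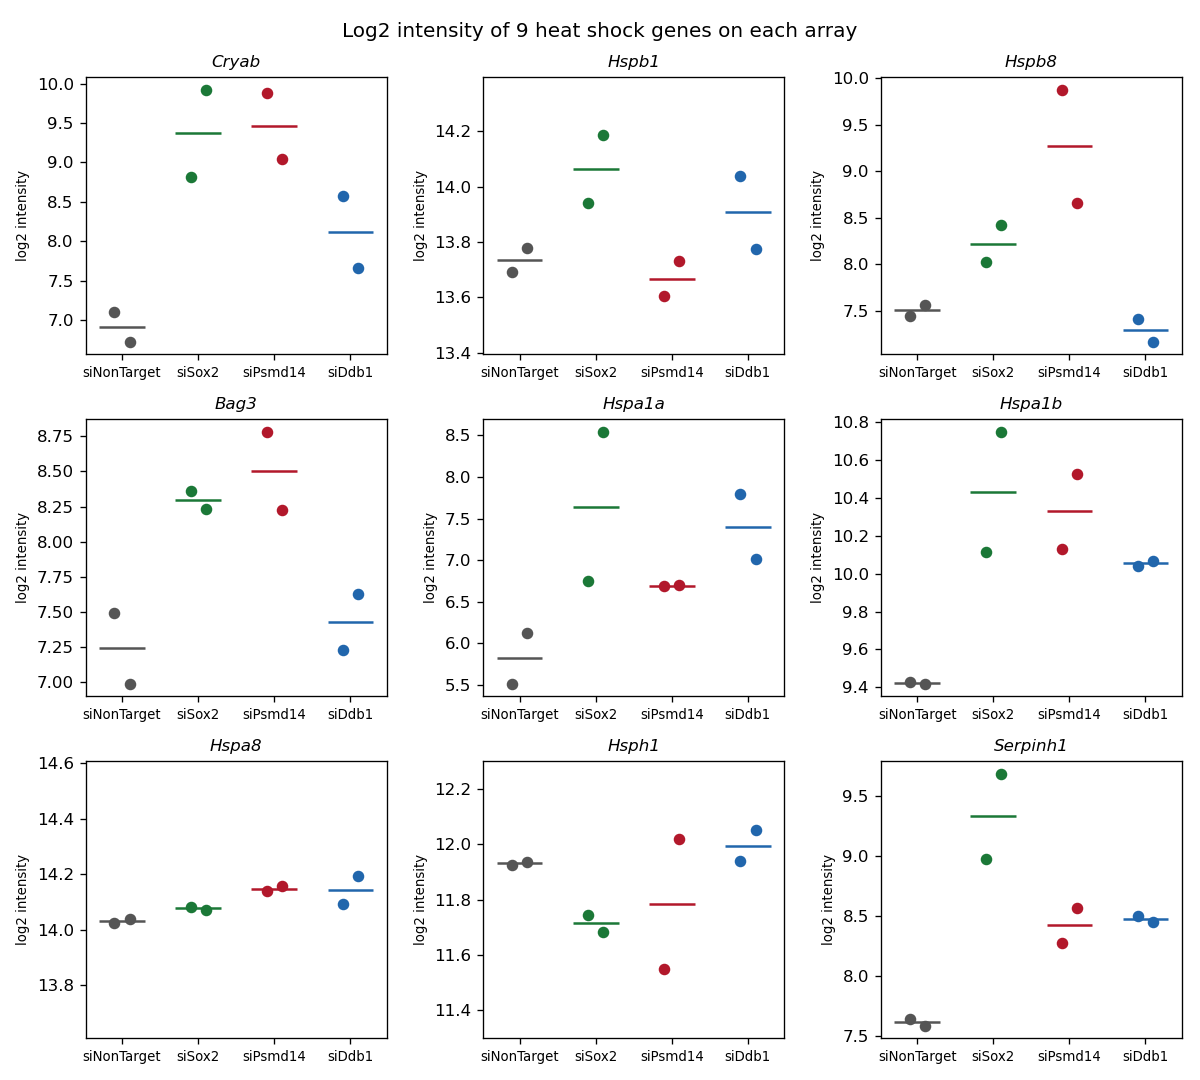
Log2 intensity of the representative probe set of each of the 9 genes (vertical axes, at least 1 unit high and different between panels) on the 2 arrays of each siRNA group (points), with the group mean (line). Cryab is lowest on both siNonTarget arrays (7.10 and 6.72), while Hspa8 stays between 14.02 and 14.19 on all 8 arrays.

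Cryab, the αB-crystallin gene, encodes a small heat shock protein abundant in lens and muscle (chr9:50745951-50756636). Its log2 intensity was 7.10 and 6.72 in siNonTarget, 8.82 and 9.92 in siSox2, 9.88 and 9.05 in siPsmd14, with 8.57 and 7.66 in siDdb1. Each knockdown array lay above both control arrays, and the siSox2 and siPsmd14 arrays overlapped each other. Against siNonTarget the log2 fold change was 2.55 in siPsmd14 (SE 0.41, 5.85-fold, limma adjusted p = 0.0262) and 2.46 in siSox2 (SE 0.41, 5.49-fold, limma adjusted p = 0.0169). In siDdb1 it was 1.20 (95% interval 0.26 to 2.14, limma adjusted p = 0.48) and did not pass. Another Cryab probe set also rose in siPsmd14 (2.30) and siSox2 (2.19). The third lay at 3.02 to 3.38 on all 8 arrays, below the array medians, and gave -0.12, -0.01 and -0.12 in siPsmd14, siSox2 and siDdb1.

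Hspb2, another small heat shock protein gene, lies inside the annotated span of Cryab (chr9:50751072-50752354). It was named here after its values were seen. It read 6.02 and 5.89 in siNonTarget, 6.98 and 7.92 in siSox2, 7.83 and 6.57 in siPsmd14, with 6.64 and 5.97 in siDdb1. Its log2 fold changes of 1.25 in siPsmd14 and 1.49 in siSox2 did not pass the limma test (adjusted p = 0.207 and 0.111). Muscle markers, named because muscle makes both proteins, had summed intensities of 402.3 and 468.6 in siNonTarget, 419.3 and 572.2 in siSox2, 593.2 and 592.3 in siPsmd14, with 532.2 and 484.9 in siDdb1. The median log2 fold change of the 7 was 0.14 in siPsmd14, 0.13 in siSox2 and 0.21 in siDdb1. In siPsmd14 5 lay above 0 and 2 below, and the highest was Actc1 (1.67). None of the 7 passed in any knockdown, and their part in the Cryab result was not tested.

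Hspb8 encodes the small heat shock protein that partners BAG3 (chr5:116408491-116422864). It read 7.45 and 7.56 in siNonTarget, 8.02 and 8.42 in siSox2, 9.88 and 8.66 in siPsmd14, with 7.41 and 7.16 in siDdb1. The 2 siPsmd14 arrays were the highest of the 8, and the siDdb1 arrays lay below the controls. The log2 fold change was 1.77 in siPsmd14 (SE 0.33, 3.40-fold, limma adjusted p = 0.0426), 0.72 in siSox2 (95% interval -0.03 to 1.46) and -0.21 in siDdb1 (-0.95 to 0.53), and the last 2 did not pass (limma adjusted p = 0.354 and 0.932). The other Hspb8 probe sets gave 1.46 and 0.31 in siPsmd14 and did not pass (limma adjusted p = 0.0547 and 0.477).

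Bag3 encodes the co-chaperone that recruits HSPB8 and HSP70 (chr7:128523583-128546981). It read 7.49 and 6.99 in siNonTarget, 8.36 and 8.23 in siSox2, 8.78 and 8.22 in siPsmd14, with 7.23 and 7.63 in siDdb1. Both siSox2 and both siPsmd14 arrays lay above every siNonTarget and siDdb1 array. The log2 fold change was 1.26 in siPsmd14 (SE 0.23, 2.40-fold, limma adjusted p = 0.041), 1.06 in siSox2 (SE 0.23, 2.08-fold, limma adjusted p = 0.0483) and 0.19 in siDdb1 (95% interval -0.34 to 0.71, limma adjusted p = 0.905). In siSox2 the adjusted p was 0.0509 with array medians subtracted or after quantile normalization, and 0.05003 with the replicate number as a block, each just outside the threshold.

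Hspb1 encodes HSP27, a small heat shock protein of the cytoskeleton and stress response (chr5:135887919-135889563). It read 13.69 and 13.78 in siNonTarget, 13.94 and 14.19 in siSox2, 13.60 and 13.73 in siPsmd14, with 14.04 and 13.78 in siDdb1. The siPsmd14 arrays overlapped the controls, and the siSox2 arrays lay above them. Its log2 fold change of 0.33 in siSox2 did not pass (limma adjusted p = 0.336), nor did -0.07 in siPsmd14 (95% interval -0.40 to 0.26) or 0.17 in siDdb1. Its level stood at the 99.7th percentile of all probe sets.

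**Figure D2:**
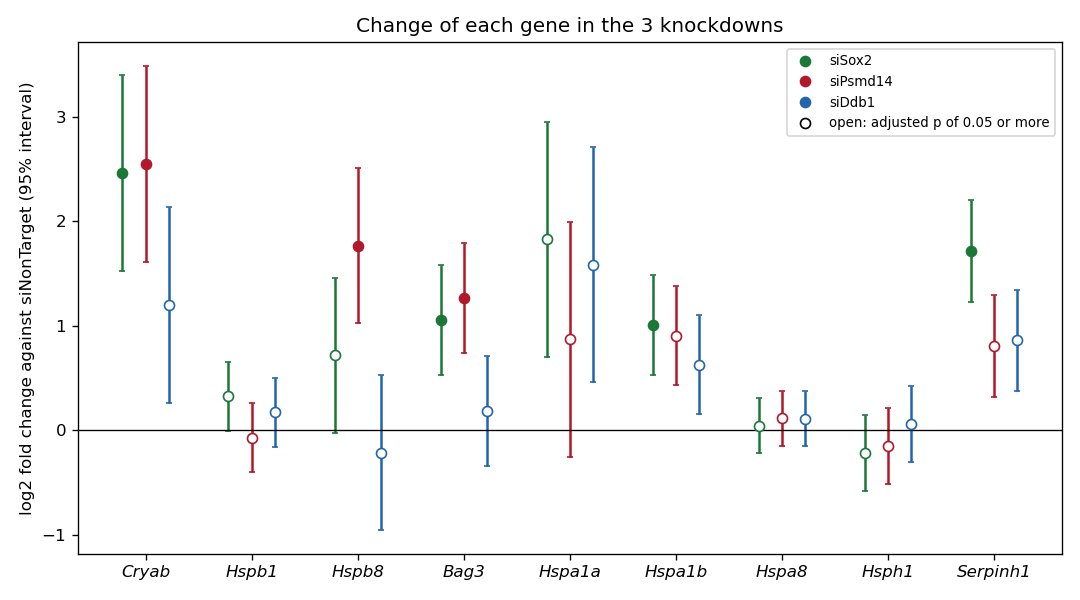
Log2 fold change of the representative probe set of each gene against siNonTarget (points) with its 95% interval from limma (bars), for siSox2, siPsmd14 and siDdb1. Filled points passed an adjusted p of 0.05. Cryab lies highest in siPsmd14 (2.55), Serpinh1 reaches 1.72 in siSox2, and the intervals of Hspa8 and Hsph1 hold 0 in each knockdown.

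Hspa1a and Hspa1b are neighbouring, nearly identical genes of stress-inducible HSP70 (chr17:34969359-34972156 and chr17:34956429-34959238), so signal of one copy may be read by the probes of the other. Hspa1b read 9.43 and 9.42 in siNonTarget, 10.11 and 10.75 in siSox2, 10.13 and 10.53 in siPsmd14, with 10.04 and 10.07 in siDdb1. Its 6 knockdown arrays all lay above both controls. The log2 fold change was 1.01 in siSox2 (SE 0.21, 2.01-fold, limma adjusted p = 0.0403), 0.90 in siPsmd14 (SE 0.21, limma adjusted p = 0.0826) and 0.63 in siDdb1 (SE 0.21, limma adjusted p = 0.463). Both other Hspa1b probe sets rose in siSox2 (1.08 and 1.14), and 1 of them in siPsmd14 (1.04, limma adjusted p = 0.046).

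Hspa1a read 5.51 and 6.13 in siNonTarget, 6.74 and 8.54 in siSox2, 6.68 and 6.70 in siPsmd14, with 7.80 and 7.01 in siDdb1. Its 6 knockdown arrays also lay above both controls, and the siSox2 arrays lay far apart (SD 1.27). The log2 fold changes were 1.83 in siSox2, 1.59 in siDdb1 and 0.87 in siPsmd14, with an SE of 0.50 each. None passed the limma test (adjusted p = 0.101, 0.426 and 0.481). Without siSox2 replicate 1, which leaves 1 siSox2 array and no spread within that group, the siSox2 value was 2.72.

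Hspa8 encodes the constitutive HSP70, HSC70, which is made without stress (chr9:40801276-40805202). It read 14.02 and 14.04 in siNonTarget, 14.08 and 14.07 in siSox2, 14.14 and 14.16 in siPsmd14, with 14.09 and 14.19 in siDdb1. The knockdown arrays lay above the controls by little, with log2 fold changes of 0.05 to 0.12 and 95% intervals from -0.22 to 0.38, and none passed. Another Hspa8 probe set, with a mean of 12.31, gave 0.50 in siPsmd14 and 0.47 in siDdb1, also short of the threshold (limma adjusted p = 0.198 and 0.497), while the dimmest Hspa8 probe set went the other way, at -0.22 and -0.27. The representative probe set stood at the 99.9th percentile of all levels, where the highest value of an array was 14.65 to 14.76.

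Hsph1 encodes HSP105, the HSP110 partner of HSP70 (chr5:149616843-149636498). It read 11.93 and 11.94 in siNonTarget, 11.75 and 11.68 in siSox2, 11.55 and 12.02 in siPsmd14, with 11.94 and 12.05 in siDdb1. The siPsmd14 arrays fell on either side of the controls. Its log2 fold changes were -0.22 in siSox2, -0.15 in siPsmd14 (95% interval -0.51 to 0.22) and 0.06 in siDdb1, and none passed.

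Serpinh1 encodes HSP47, the collagen chaperone of the endoplasmic reticulum (chr7:99345375-99353239). It read 7.64 and 7.59 in siNonTarget, 8.98 and 9.69 in siSox2, 8.28 and 8.57 in siPsmd14, with 8.50 and 8.45 in siDdb1. The siSox2 arrays were the highest of the 8, and the 4 arrays of the other knockdowns lay between them and the controls. The log2 fold change was 1.72 in siSox2 (SE 0.21, 3.29-fold, limma adjusted p = 0.00473), 0.81 in siPsmd14 (SE 0.21, limma adjusted p = 0.12) and 0.86 in siDdb1 (SE 0.21, limma adjusted p = 0.293). Its other probe set gave 1.67 in siSox2 and also passed (limma adjusted p = 0.00469). The summed intensity of the 8 trophoblast markers was 4781 and 6161 in siSox2 against 1092 to 1246 on the other 6 arrays. In siPsmd14 (1242 and 1246) and siDdb1 (1169 and 1092), where Serpinh1 also lay above both controls, it was near siNonTarget (1162 and 1095). That sum is weighted to Tfap2c, the brightest of the 8 in these groups, with means of 9.49 in siPsmd14, 9.43 in siDdb1 and 9.70 in siNonTarget. The mean log2 value of these markers was 6.35 and 6.23 in siPsmd14, 6.17 and 5.92 in siDdb1, and 5.74 and 5.69 in siNonTarget. In siPsmd14 6 of the 8 lay above 0 and 2 below (median log2 fold change 0.36), and in siDdb1 also 6 and 2 (0.31). Over all genes 47.4% and 46.8% lay above 0. The trophoblast sum was higher on siSox2 replicate 2 than on replicate 1, as were Serpinh1, Cryab, Hspb8, Hspa1a, Hspa1b and Hspb1. Bag3 was lower on replicate 2 (8.23 against 8.36), as were Hsph1 (11.68 against 11.75) and Hspa8 (14.07 against 14.08). The part of the trophoblast markers in the siSox2 rises was not tested. Fibroblasts make much collagen, and the 8 fibroblast markers summed to 166.5 and 218.2 in siSox2 against 194.1 and 183.3 in siNonTarget, with the higher siSox2 sum again on replicate 2. None of the 8 rose past the threshold in siSox2. Thy1, the brightest of them in siNonTarget, fell (mean 4.70 in siSox2 against 5.76), which lowers the siSox2 sums. By sign 6 of the 8 fibroblast markers lay above 0 in siSox2 and 2 below, with a median log2 fold change of 0.18. Of the collagen genes among them, Col1a1 and Col3a1 lay below the array medians (means of 4.01 and 3.39 in siSox2, 3.65 and 3.28 in siNonTarget) and Col1a2 above them (5.57 and 5.31). Pdgfra had a mean of 4.97 in siSox2 and 4.24 in siNonTarget. The part of these markers in the Serpinh1 result was not tested.

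**Figure D3:**
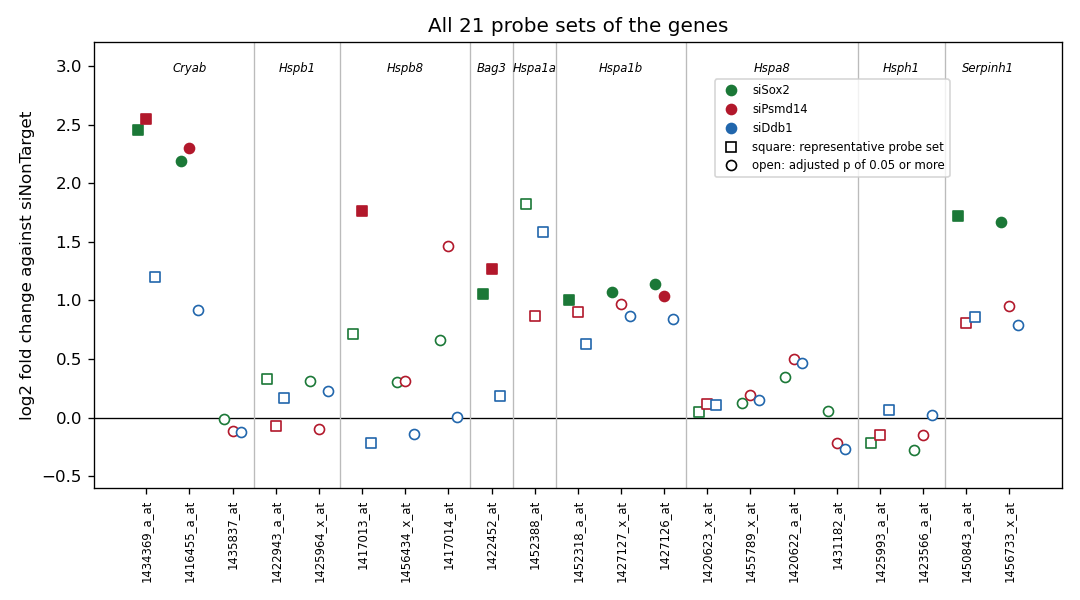
Log2 fold change against siNonTarget of all 21 probe sets of the 9 genes (horizontal axis, probe set names grouped by gene), in siSox2, siPsmd14 and siDdb1. Squares are the representative probe sets and filled symbols passed an adjusted p of 0.05. The 3 probe sets of Hspa1b lie close together (1.01 to 1.14 in siSox2), whereas 1 of the 3 Cryab probe sets lies near 0 in each knockdown.

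Counted by non-overlap, both knockdown arrays lay above both controls for 7 of the 9 genes in siPsmd14, 8 in siSox2 and 6 in siDdb1. The same was true of 22.4%, 23.3% and 19.8% of all 18193 genes. The calls rested on few arrays. A fit without an array leaves 1 array in its group, and that group then adds nothing to the estimate of the spread. Calls gained or kept in such a fit may rest on that loss of spread. In siPsmd14 the 3 calls became 0 without siNonTarget replicate 1, siNonTarget replicate 2 or siPsmd14 replicate 1, the array with the highest Actb difference and the lowest 18S signal. Without siPsmd14 replicate 2, the array nearest to siDdb1 replicate 2, the same 3 genes passed, at 2.96 for Cryab, 2.37 for Hspb8 and 1.54 for Bag3. Without siPsmd14 replicate 1 the log2 fold change of Cryab was 2.13, that of Hspb8 1.16 and that of Bag3 0.99 (limma adjusted p = 0.181, 0.103 and 0.22). Without either siSox2 array 3 genes passed, but they were Cryab, Hspa1b and Serpinh1, while Hspb8 and Bag3 lay just outside (limma adjusted p = 0.0529 and 0.0568). Leaving out either siDdb1 array left Cryab and Bag3, and fitting only the 4 arrays compared left Cryab. In siSox2 the 4 calls became 1, Serpinh1, without siNonTarget replicate 1 or without siSox2 replicate 2, 0 without siNonTarget replicate 2, and 2, Cryab and Serpinh1, without either siDdb1 array. Fitting only the 4 arrays compared left 3, without Hspa1b (limma adjusted p = 0.0603). Without siSox2 replicate 1 the Bag3 call was lost, at a log2 fold change of 0.99, and Hspa1a was at 2.72. Without siSox2 replicate 2 the log2 fold changes were 1.91 for Cryab, 1.12 for Bag3, 0.69 for Hspa1b and 1.36 for Serpinh1. The direction of these 7 differences was the same in each of these fits.

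**Figure D4:**
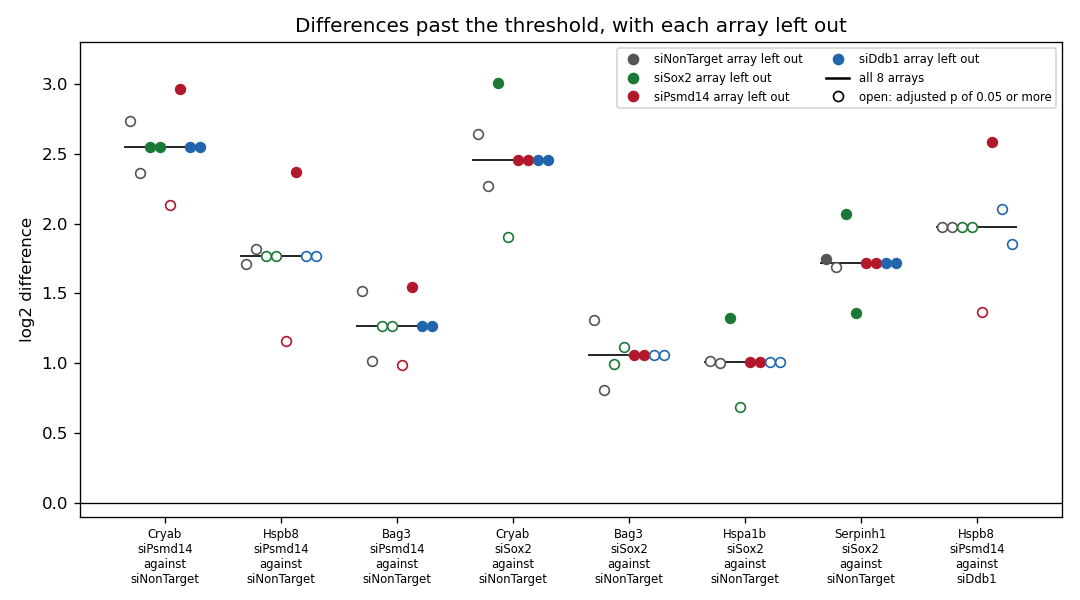
Log2 difference (vertical axis) of the 8 differences past the threshold among the 9 genes when each array is left out in turn (points, coloured by the group of the array left out) and with all 8 arrays (line). Filled points passed an adjusted p of 0.05. The rise of Serpinh1 in siSox2 ranges from 1.36 to 2.07 and that of Cryab in siPsmd14 from 2.13 to 2.96.

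The knockdowns were then set against each other. The control arrays do not enter these differences, but they share in the estimate of the spread, and so in the p-values. Hspb8 was higher in siPsmd14 than in siDdb1, by 1.98 on the log2 scale (SE 0.33, 3.94-fold, limma adjusted p = 0.0485), the 1 of 9 genes that passed in this comparison. Over all genes 0.588% passed. The Hspb8 call was lost without any of the 8 arrays except siPsmd14 replicate 2 (limma adjusted p = 0.0677 to 0.218), and its difference was 1.37 without siPsmd14 replicate 1. It was also lost under filters on dim probe sets, quantile normalization, the replicate block and a fit of only the 4 arrays compared. Without siPsmd14 replicate 2 the Bag3 difference was 1.36. With all arrays Bag3 (1.08, 95% interval 0.55 to 1.60, limma adjusted p = 0.11) and Cryab (1.35, 0.41 to 2.28, limma adjusted p = 0.248) did not pass.

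Between siPsmd14 and siSox2 none of the 9 genes passed, while 4.03% of all genes did. At an unadjusted limma p under 0.05 the count was 7082 of all 45037 probe sets. Cryab differed by 0.09 (95% interval -0.85 to 1.03) and Bag3 by 0.21 (-0.32 to 0.73), so differences of up to about 1 log2 unit in Cryab lie within the interval. Serpinh1 was lower in siPsmd14 by -0.91 (-1.39 to -0.42, limma adjusted p = 0.0635). That difference passed when 1 probe set per gene was tested (limma adjusted p = 0.0478). Without siSox2 replicate 1 the Serpinh1 difference was -1.26 and that of Hspa1a was -1.85. Hspb8 was higher by 1.05 (0.31 to 1.79, limma adjusted p = 0.146). Without siPsmd14 replicate 2 the Hspb8 difference was 1.66.

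Between siDdb1 and siSox2 none of the 9 genes passed, against 4.63% of all genes. Of all 45037 probe sets, 6502 had an unadjusted limma p under 0.05. Bag3 differed by -0.87 (95% interval -1.39 to -0.34, limma adjusted p = 0.0947) and Serpinh1 by -0.86 (-1.34 to -0.37, limma adjusted p = 0.0755). Without siSox2 replicate 1 the Serpinh1 difference was -1.21. Cryab differed by -1.26 and Hspb8 by -0.93, which passed without either siPsmd14 array (limma adjusted p = 0.0277). Of the group means, 7 of 9 lay lower in siDdb1. From the highest group mean to the lowest, Hspb8 ran siPsmd14, siSox2, siNonTarget, siDdb1, and Serpinh1 ran siSox2, siDdb1, siPsmd14, siNonTarget. No pair of neighbours in either order passed the limma test with all 8 arrays.

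The wider chaperone network was read from 45 other genes of HSP70, HSP90, HSP60, DNAJ, small heat shock protein, BAG and HSF families and their cofactors, of which 41 had a probe set. In siPsmd14 1 of the 41 rose and none fell, in siSox2 1 rose and none fell, and in siDdb1 none passed. Over all genes 1.7% rose in siPsmd14, 2.81% in siSox2 and 0.044% in siDdb1, so 1 of 41 lies near the share over all genes. The gene that rose in both was Sqstm1, the autophagy receptor. It read 10.38 and 10.11 in siNonTarget, 11.10 and 11.53 in siSox2, 12.26 and 11.72 in siPsmd14, with 10.71 and 10.32 in siDdb1. Its log2 fold change was 1.75 in siPsmd14 (limma adjusted p = 0.012) and 1.07 in siSox2 (limma adjusted p = 0.0423), and the siPsmd14 mean exceeded the siDdb1 mean by 1.47 (limma adjusted p = 0.0378). The other Sqstm1 probe set gave 1.38 in siPsmd14 and 0.42 in siSox2. The Sqstm1 calls against the control were lost without either siNonTarget array, without siPsmd14 replicate 1 in siPsmd14 (limma adjusted p = 0.083), and without siSox2 replicate 2 in siSox2 (limma adjusted p = 0.33). The call against siDdb1 was lost without either siNonTarget array, either siDdb1 array or siPsmd14 replicate 1 (limma adjusted p = 0.105 to 0.238).

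The median log2 fold change of the 41 genes was 0.01 in siPsmd14, 0.02 in siSox2 and 0.01 in siDdb1. Bag1, the BAG family co-chaperone that directs clients to the proteasome, read 10.64 and 10.43 in siNonTarget, 10.67 and 10.48 in siSox2, 10.45 and 10.28 in siPsmd14, with 10.52 and 10.49 in siDdb1. Its log2 fold changes of -0.18 in siPsmd14, 0.03 in siSox2 and -0.03 in siDdb1 did not pass. In siDdb1 the genes with the smallest p were Hspa2, the testis-enriched HSP70 (0.64, limma adjusted p = 0.478), and Dnajb5 (0.42, limma adjusted p = 0.579), and neither passed. Between siPsmd14 and siSox2 the HSP40 gene Dnajb5 (0.80, limma adjusted p = 0.0464) and Hsf5, of the heat shock factor family (0.63, limma adjusted p = 0.0405), were higher in siPsmd14. They were 2 of the 41, and 4.03% of all genes passed in that comparison. Hsf5 lay below the array median on each array, at 3.99 to 4.78. The other Dnajb5 probe sets gave -0.08 and 0.33. The Hsf5 call was lost on leaving out any 1 of the 8 arrays (limma adjusted p = 0.058 to 0.183), and the Dnajb5 call on leaving out any except siPsmd14 replicate 2 (0.0619 to 0.224). Between siDdb1 and siSox2, Hspa4l, of the HSP110 family (-0.98, limma adjusted p = 0.102), and Sqstm1 (-0.80, limma adjusted p = 0.115) had the smallest p and did not pass.

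**Figure D5:**
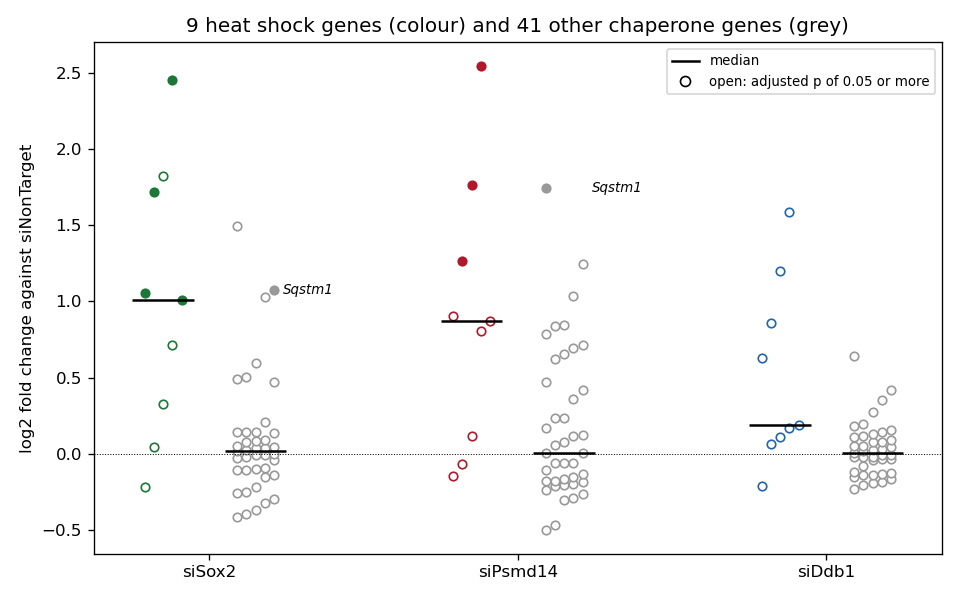
Log2 fold change against siNonTarget of the 9 heat shock genes (coloured) and of the 41 other chaperone genes with a probe set (grey) in siSox2, siPsmd14 and siDdb1, with the median of each list (line) and filled points past an adjusted p of 0.05. The medians of the grey lists lie at 0.01 to 0.02, and Sqstm1 is the single filled grey point in siSox2 and in siPsmd14.

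Genes with the most similar pattern were taken by the smallest root mean square difference over the 8 arrays, each value as its distance from the siNonTarget mean. Being the smallest, these differences lie below the median over all genes by selection. For Cryab these were the integrin gene Itga8 (0.24 log2 units), the ubiquitin ligase gene Rnf128 (0.33) and the gelsolin gene Gsn (0.36), against a median of 1.93 over all genes. Their log2 fold changes were 2.71, 2.27 and 2.83 in siPsmd14, and 2.08, 2.0 and 2.39 in siSox2. For Hspb8 they were the galectin gene Lgals8 (0.22), the GTPase gene Rit1 (0.23) and Chpf2, which encodes a chondroitin-synthesis protein (0.24), against a median of 1.04. For Bag3 they were Fam83g (0.20), the phospholipase gene Pld2 (0.23) and the cystatin gene Cstb (0.23), against a median of 0.89. No chaperone gene was among these 9. The 9 heat shock genes and 41 other chaperone genes are few among 18193, so most lists of 9 genes would hold none. The arrays share their controls and, within each array, the same scaling.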

How the data were processed

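The values are the intensity values the submitters deposited, on a linear scale. The submitters' processing notes name RMA. Its version and settings were not given in the sources used here. RMA commonly gives arrays 1 distribution, and a shift shared by most transcripts would then not be seen. Per the labels' protocols, 5 ng of RNA was amplified and hybridised as biotin-labelled cDNA to Affymetrix arrays. After log2 transformation, 64 control probe sets were left out of 45101. GEO's platform annotation gave 1 symbol to 34945 of the remaining 45037 probe sets. Positions are from RefSeq on GRCm38.p6, which is not stated to be the array design's build.

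All 8 arrays entered 1 limma 3.58.1 model (R 4.3.3, lmFit and eBayes without trend), with Benjamini-Hochberg adjustment over all 45037 probe sets and a threshold of 0.05. An exact permutation test of 2 against 2 arrays cannot go below p = 0.333. Precision is limited by having 2 arrays a group. The scripts were tested on simulated data. The alternatives are in the closing section. The members and lists were chosen with earlier results of these data known. By rule, the named genes were all members, Bag1, the siRNA targets, up to 6 other chaperone genes past the threshold per comparison (2 with the smallest p where none passed), and the 3 most similar genes for Cryab, Hspb8 and Bag3. Hspb2 and single marker genes (Krt7, Thy1, Pdgfra, Actc1 and the collagen genes) fall outside it and were named after their values were seen.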

Additional observations from a re-analysis of the deposited data

How the results depend on the processing

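Among the 9 heat shock genes, the count past the threshold in siPsmd14 was 3 with all arrays, 1 with only the 4 arrays compared, and 0 to 3 with an array left out. In siSox2 it was 4, and 0 to 4 with an array left out. There it was 3 with array medians subtracted, after quantile normalization and with the replicate block, each without Bag3, and 3 with only the 4 arrays compared, without Hspa1b (limma adjusted p = 0.0603). In siDdb1 it was 0 in every fit. Between siPsmd14 and siDdb1 it was 1, and 0 when the brighter 50% of probe sets alone were tested, with a minimum mean of 5, after quantile normalization, with only the 4 arrays compared or with the replicate block (0 to 2 with an array left out). Between siPsmd14 and siSox2 it was 0, 1 with 1 probe set per gene, and 0 to 2 with an array left out, and between siDdb1 and siSox2 0, and 0 to 1 with an array left out. The counts over all probe sets with an array left out were 17 to 1295 in siPsmd14 (609 with all), 0 to 146 in siDdb1 (12), 153 to 1440 in siSox2 (1320), 325 to 1543 between siPsmd14 and siSox2 (1255), 11 to 884 between siPsmd14 and siDdb1 (186) and 319 to 1486 between siDdb1 and siSox2 (1387). With only the 4 arrays compared they were 0 in siDdb1, 455, 11 and 789 in those last 3 comparisons. Under the filters the count in siDdb1 was 0, and between siPsmd14 and siDdb1 it was 121 with the minimum of 5. Same-numbered arrays correlated at -0.22 to 0.24 between groups in their deviations, so the numbers were not taken to pair them, and the replicate block left 2 calls in siDdb1. By the mean of all probe sets of a gene, Serpinh1 between siPsmd14 and siDdb1 was 0.054 and Hspa8 between siDdb1 and siSox2 was -0.027, each turned in sign and neither past the threshold. Differences short of the threshold that changed sign on leaving out an array ran, in siPsmd14, from -0.38 to 0.086 for Hsph1; in siDdb1 from -0.065 to 0.44 for Bag3 and -0.14 to 0.071 for Bag1; and in siSox2 from -0.070 to 0.14 for Bag1. Between siPsmd14 and siSox2 they ran from -0.46 to 0.64 for Cryab, -0.071 to 0.49 for Bag3, -0.42 to 0.22 for Hspa1b and -0.16 to 0.30 for Hsph1. Between siPsmd14 and siDdb1 they ran from -0.046 to 0.053 for Hspa8, -0.44 to 0.023 for Hsph1 and -0.20 to 0.096 for Serpinh1, and between siDdb1 and siSox2 from -1.14 to 0.66 for Hspa1a. Why each changed was not tested.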
